A study of Mus musculus with 3 samples.

Results

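Interferon-induced genes were read as a group of 38 named genes across single-cell RNA libraries of mouse lung, out of 27998 genes listed in the count matrices. All 38 symbols were found. They were ordered by role into 17 antiviral effectors, 5 sensors of foreign nucleic acid, 4 transcription factors, 4 membrane proteins and 8 GTPases. The lungs came from MMTV-HER2/Neu mice on the FvB background, in which the MMTV promoter drives the Neu oncogene (the rat form of HER2) in mammary epithelium. All groups carry this transgene and all were sorted as CD45-, which removes leukocytes. The negative library holds CD45- HER2- lung cells and the early positive library CD45- HER2+ cells, both from mice of 14 to 18 weeks with no palpable tumour. The late positive library holds CD45- HER2+ cells from mice older than 20 weeks with primary tumours. Where 3 values are given for a class, they stand in this order. Each group is 1 library of the Chromium 3′ v3 kit, and the number of animals behind it is not given in the sources used here. Differences between libraries therefore have no replicate check, no p-value is given, and every interval below is a 95% interval that covers counting error only.

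A barcode counted as a cell with at least 1000 UMIs (unique molecular identifiers, each standing for 1 captured RNA) and under 25% of them mitochondrial. This kept 6416, 7622 and 6012 cells in the 3 libraries, with median depths of 3166, 5318.5 and 8075 UMIs. Each cell took the first class whose marker rule it met: mammary (Csn3 and Wfdc18), alveolar type 2 (Sftpc), airway (Cyp2f2 and Foxj1), endothelial (Cldn5 and Cdh5), mural (Higd1b, Cox4i2 and Myh11) or fibroblast (Pdgfra and Col1a2). Endothelial cells numbered 5186, 1558 and 486 in the same order of libraries, mural cells 221, 1352 and 931, and fibroblasts 684, 268 and 71. Alveolar type 2 cells numbered 3939 and 3996 and airway cells 155 and 196 in the early and late positive libraries, the order used for every pair of values below. The 161 mammary cells were all of the late library. Most cells sorted as HER2-positive thus carried markers of lung epithelium or vessel walls. Cells meeting more than 1 class rule were 3.54%, 19.7% and 19.3% of the libraries, which share 18, 14 and 10 barcodes pairwise and 0 across all 3. A level below is in CPM, the UMIs of a gene per 1000000 UMIs of the class, and since 3′ counting ties UMIs to transcripts and not to length, levels are compared only for the same gene.

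Interferons are secreted proteins that cells release on meeting viruses or damaged nucleic acid. Type I interferons bind the receptor pair Ifnar1 and Ifnar2, and through the kinases Jak1 and Tyk2 they activate a complex that holds Stat2 and Irf9 and binds the interferon-stimulated response element (ISRE) in promoters. Interferon gamma binds Ifngr1 and Ifngr2, and its target promoters carry the gamma-activated site (GAS). The GTPases of the guanylate-binding (Gbp) and immunity-related (Iigp1, Igtp, Irgm1) families take part in defence against intracellular microbes, some as effectors and some, such as Irgm1, as regulators. Both families are best known as targets of interferon gamma.

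The promoters of the group carried these elements more often than promoters at large. RefSeq promoter windows of 300 bases (250 before and 50 after the start, build GRCm38.p6) matched 29 of the 38 genes. The ISRE core, GAAA repeated after 2 bases of any kind and searched on both strands, lay in the windows of 18 of the 29, or 62.1%, against 3.99% of 27025 genes with a window. It was found for 5 of 12 effectors, 3 of 3 sensors, 1 of 4 transcription factors, 3 of 4 membrane genes and 6 of 6 GTPases. The GAS TTCNNNGAA, which reads the same on both strands, lay in 10 of 29 windows, or 34.5%, against 9.55% of genes. A match describes the letters of a window and is neither a measured site nor a cause.

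Below are the bases ahead of the start of 6 genes on which the results turn, with motif matches in capitals (ISRE core in Isg15, Ifit1 and Rsad2, both motifs in Gbp7 and Igtp, GAS in Irf1). Isg15 is a ubiquitin-like protein attached to other proteins, Ifit1 binds viral RNA, Rsad2 (viperin) makes a chain-terminating nucleotide, and Irf1 is a transcription factor induced by interferon gamma. The windows are chr4:156200819-156200968 on the minus strand for Isg15, chr19:34640739-34640870 (plus) for Ifit1, chr12:26456453-26456602 (minus) for Rsad2, chr3:142530186-142530335 (plus) for Gbp7, chr11:58199406-58199555 (plus) for Igtp and chr11:53769864-53770013 (plus) for Irf1.
Isg15: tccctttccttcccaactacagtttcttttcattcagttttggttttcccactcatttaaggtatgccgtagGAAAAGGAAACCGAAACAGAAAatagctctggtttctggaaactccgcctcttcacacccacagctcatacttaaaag
Ifit1: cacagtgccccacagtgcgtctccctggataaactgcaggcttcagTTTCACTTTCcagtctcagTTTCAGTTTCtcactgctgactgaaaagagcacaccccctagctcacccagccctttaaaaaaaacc
Rsad2: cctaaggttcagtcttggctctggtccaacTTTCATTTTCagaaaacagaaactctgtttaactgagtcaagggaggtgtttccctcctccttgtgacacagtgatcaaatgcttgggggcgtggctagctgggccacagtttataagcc
Gbp7: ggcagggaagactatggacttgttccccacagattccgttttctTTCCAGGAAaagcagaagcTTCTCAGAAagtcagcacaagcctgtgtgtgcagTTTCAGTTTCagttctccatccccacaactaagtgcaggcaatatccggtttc
Igtp: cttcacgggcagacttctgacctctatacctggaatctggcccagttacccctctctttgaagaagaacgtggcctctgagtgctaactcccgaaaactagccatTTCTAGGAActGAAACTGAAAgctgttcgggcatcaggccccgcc
Irf1: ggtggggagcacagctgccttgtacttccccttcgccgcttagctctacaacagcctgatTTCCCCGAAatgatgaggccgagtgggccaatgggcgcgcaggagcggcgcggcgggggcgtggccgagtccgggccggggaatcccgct
In Isg15 the capitals are 3 overlapping ISRE cores whose first bases lie 78, 72 and 66 bases before the start. Ifit1 has 2 separate cores on the opposite strand, and Gbp7 has 2 GAS matches followed by 1 ISRE core.

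**Figure D1:**
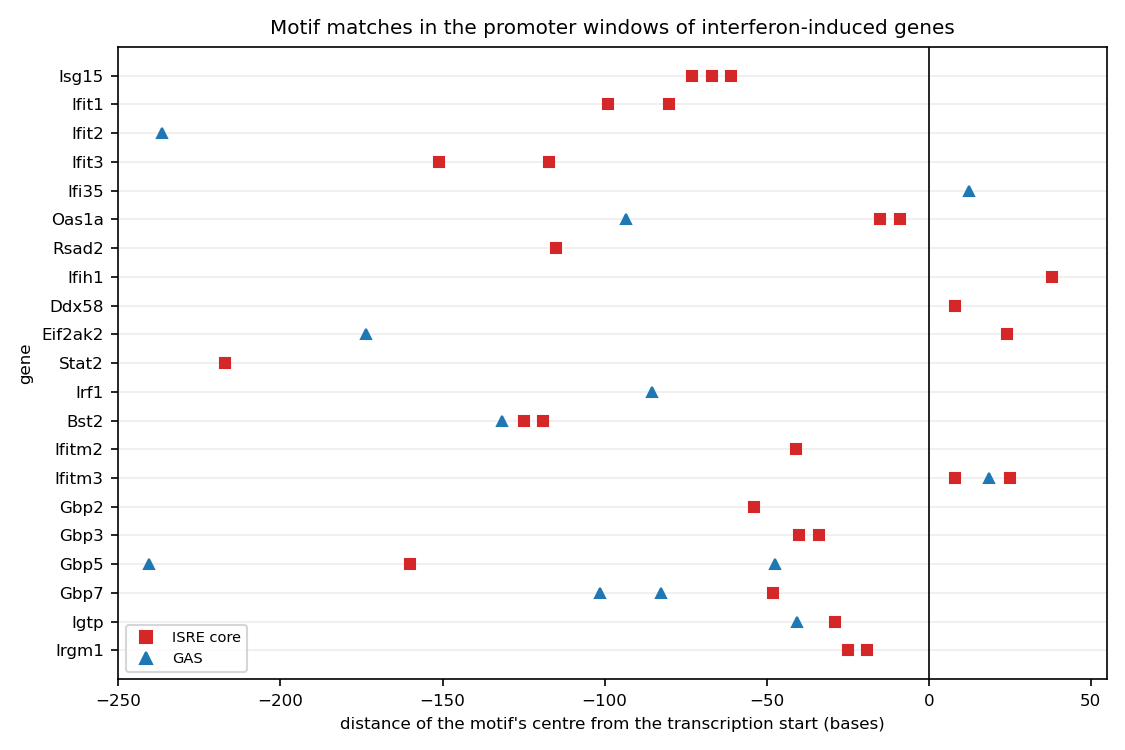
Each symbol marks the centre of a motif match by its distance in bases from the transcription start (x axis) for the genes with at least 1 match (y axis), squares for the ISRE core and triangles for the GAS. Squares lie for all 6 GTPases with a window, and most symbols stand before the start.

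Endothelial cells carried the most transcripts of the group in all 3 libraries. Alveolar type 2 cells carried the fewest in both positive libraries. Summed over the 38 genes, endothelial cells held 7636 CPM (7595 to 7677) in the negative, 7185 (7121 to 7249) in the early positive and 7568 (7470 to 7666) in the late positive library. Mural cells held 4558, 3943 and 4815 CPM and fibroblasts 3607, 4092 and 4010. Airway cells held 1800 and 1544 CPM, mammary cells 1595, and alveolar type 2 cells 652 (642 to 661) and 478 (471 to 486). The order endothelial above mural and fibroblast above airway and alveolar type 2 was thus found in both HER2-positive libraries. It rests on shares of class UMIs, which very abundant genes lower for all others. Sftpc is at least 10% of the UMIs of an alveolar type 2 cell by rule, and the airway marker Scgb1a1 held 105877 and 187430 CPM of airway cells. The order was not rescaled for this. Alveolar type 2 cells meeting no second class rule held 444 and 425 CPM of the group.

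The share of cells with at least 5 UMIs of the group was 97.4%, 97.9% and 99.0% of endothelial cells in the 3 libraries. It was between 93.0% and 98.2% of mural cells, 95.9%, 92.9% and 88.7% of fibroblasts, 29.6% and 33.8% of alveolar type 2 cells, 80.0% and 86.7% of airway cells, and 98.1% of mammary cells (Clopper-Pearson intervals are drawn in the plot of shares). Depth enters this count, since mammary cells had a median of 22179 UMIs and endothelial cells of the negative library 3034. After each cell was thinned to 1000 UMIs, at least 3 UMIs of the group were found in 91.8%, 91.3% and 94.7% of endothelial cells, 77.8%, 71.3% and 79.2% of mural cells and 64.8%, 67.5% and 60.6% of fibroblasts. The thinned share was 22.6% and 22.4% of airway cells, 18.6% of mammary cells (12.9 to 25.5) and 4.29% and 1.65% of alveolar type 2 cells. The 4 membrane genes made up much of the count: without them at least 5 UMIs were held by 67.1%, 72.8% and 78.6% of endothelial cells but by 24.9%, 22.5% and 33.1% of mural cells. At a cut of 5, cells with exactly 4 UMIs of the group numbered 72, 560 and 552, and those with exactly 5 numbered 90, 415 and 439.

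**Figure D2:**
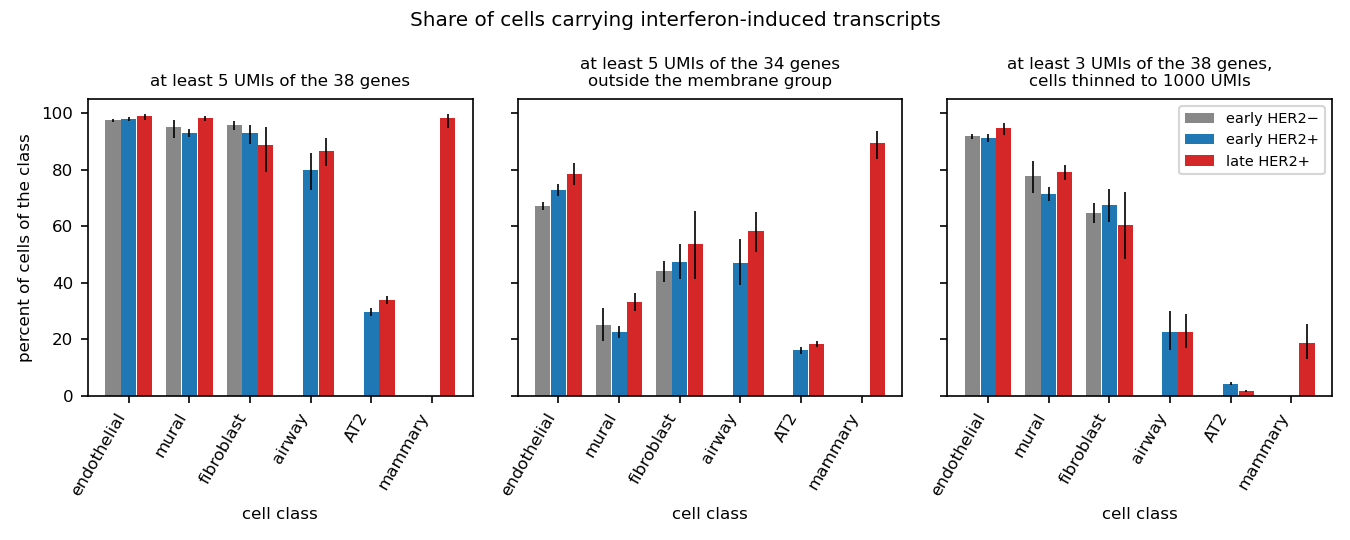
Bars give the percent of cells of each class (x axis) with at least 5 UMIs of the 38 genes (left), at least 5 without the membrane genes (middle) and at least 3 after thinning (right), coloured by library, with Clopper-Pearson intervals; classes under 50 cells in a library have no bar. Endothelial bars stay above 90% on the left and right, and the mammary bar falls from 98.1% to 18.6%.

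Endothelial cells were the class with the highest level for most single genes too, among the 3, 5 and 6 classes of at least 50 cells in the 3 libraries. Of 37 genes with at least 20 counts over the classes, the highest level was endothelial for 33 in the negative library (34.9% of all genes counted there), for 28 in the early positive (23.7%) and for 28 in the late positive library (18.1%). It was endothelial by at least 1.5-fold over the next class for 31, 26 and 23 (16.6%, 9.26% and 7.94% of all genes). For 26 of the 37 the endothelial class was highest in all 3 libraries (15% of all genes counted in all 3). Alveolar type 2 was highest for 0 of the 37, against 7.76% and 6.43% of all genes in the early and late positive libraries. Mx1, an antiviral GTPase counted here among the effectors, had under 20 counts in every library and was the 1 gene left out.

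**Figure D3:**
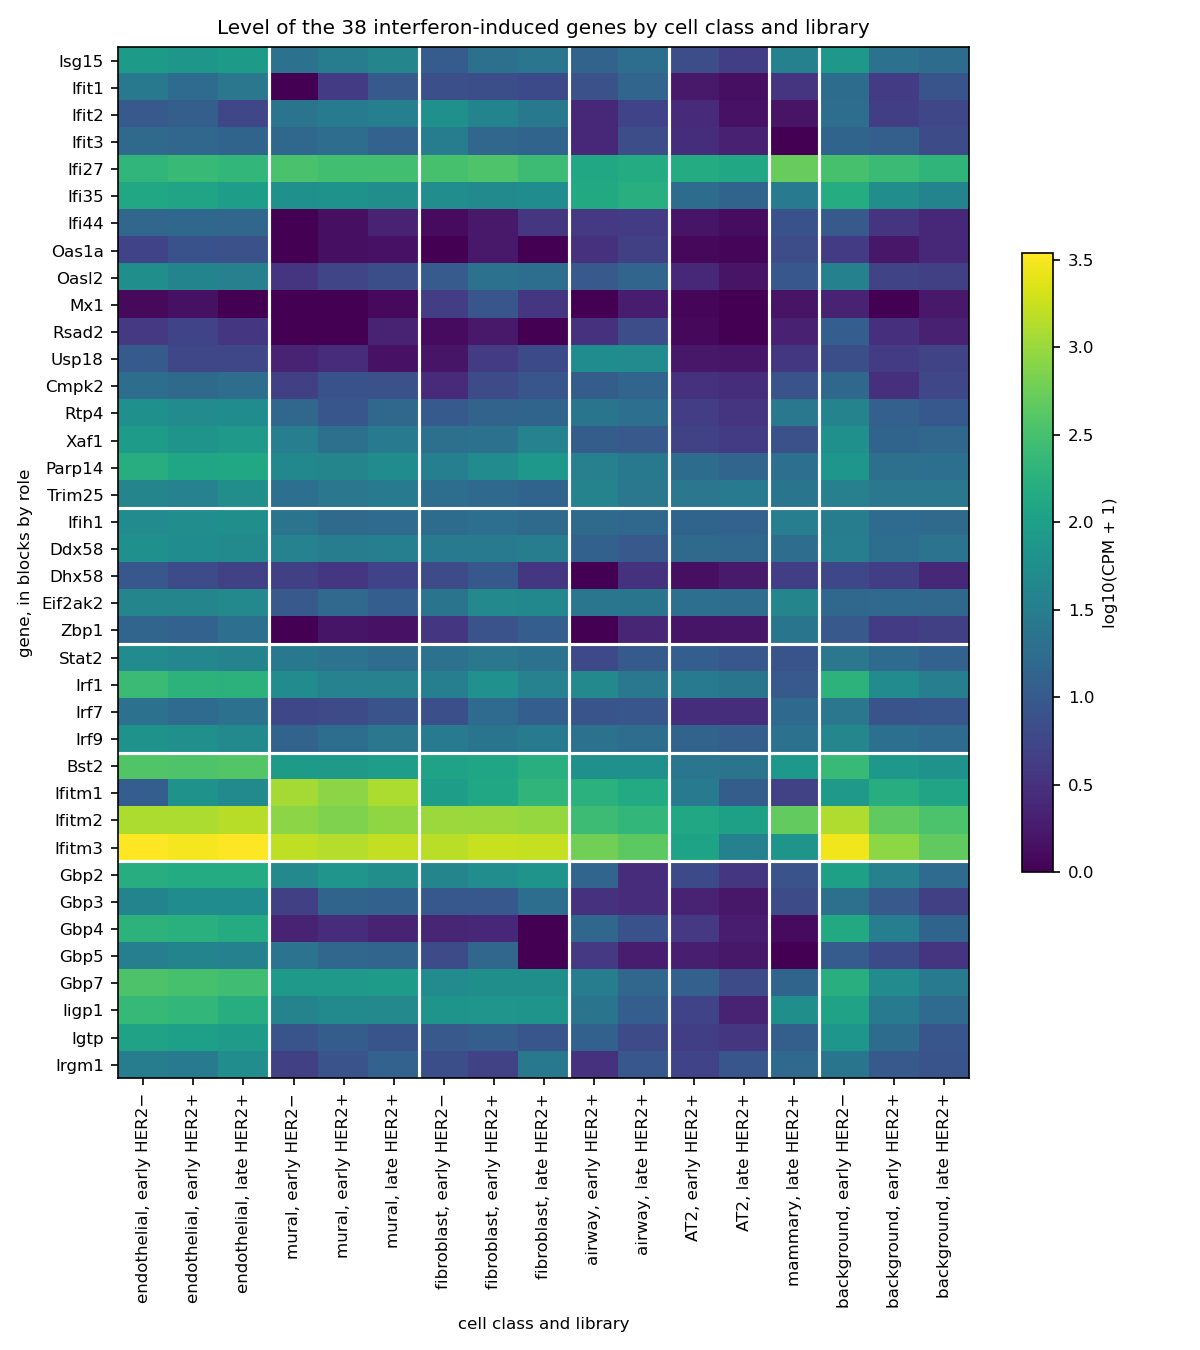
Colour gives log10(CPM + 1) of each of the 38 genes (y axis, in blocks by role) in each class and library (x axis), with barcodes of 1 to 100 UMIs at the right as background RNA. The endothelial columns are the brightest in most blocks, Ifitm1 is bright in the mural columns, and the alveolar type 2 columns are dark.

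Among the effectors, Isg15 stood at 82.9 (78.7 to 87.3), 73.5 (67.2 to 80.3) and 84.9 CPM (74.8 to 95.9) in endothelial cells. In mural cells it was 19.7, 29.1 and 39.6 CPM, and in alveolar type 2 cells 5.90 and 3.47. The endothelial levels of Isg15 overlap among libraries and lie above every other class named here. Oasl2, an RNA-sensing protein of the oligoadenylate synthetase family, stood at 57.3, 38.4 and 33.8 CPM in endothelial cells and at most at 20.8 in the other classes of at least 50 cells. Rtp4, a chaperone of membrane receptors, stood at 57.8 CPM in the negative and 50.7 in the late positive library, Xaf1, a pro-apoptotic protein, at 87.8, 65.8 and 81.6, and Parp14, an ADP-ribosyltransferase, at 158, 118 and 131. These effectors were each highest in endothelial cells of all 3 libraries.

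The sensors were found in every main class. Ifih1 (MDA5), which binds long viral RNA, stood at 50.6, 54.0 and 57.4 CPM in endothelial cells, 22.2, 15.5 and 16.5 in mural cells and 31.4 in mammary cells. Ddx58 (RIG-I), a sensor of short viral RNA, stood at 59.4, 51.1 and 47.7 in endothelial and 35.7, 30.3 and 32.2 in mural cells. Eif2ak2 (PKR), a kinase that halts translation, stood at 39.4, 39.1 and 45.8 in endothelial cells and at 44.7 and 44.0 in fibroblasts of the early and late positive libraries, so for Eif2ak2 the 2 classes were close.

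Among the transcription factors, Irf1 stood at 256 (249 to 264), 194 (184 to 205) and 186 CPM (171 to 202) in endothelial cells and between 8.65 and 60.8 in the other classes of at least 50 cells. Stat2, a part of the ISRE-binding complex, stood at 50.3, 43.0 and 36.8 CPM in endothelial cells, and Irf9, its DNA-binding partner, at 63.5, 59.1 and 47.7. Irf7, which drives type I interferon genes, was low throughout, at 20.7, 16.5 and 19.6 CPM in endothelial cells and 15.4 in mammary cells.

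The membrane genes were the most counted of the group. Ifitm3, which blocks viral entry at endosomes, stood at 3354, 3121 and 3440 CPM in endothelial cells, 1572, 1393 and 1622 in mural cells and 112 and 34.9 in alveolar type 2 cells. A UMI of Ifitm3 was found in 96.8%, 97.8% and 98.8% of endothelial cells and in 19.4% and 11.4% of alveolar type 2 cells. Background barcodes of 1 to 100 UMIs held 2855, 848 and 463 CPM of Ifitm3, so free RNA carries it as well. Bst2 (tetherin), which holds budding viruses at the cell surface, stood at 381, 370 and 391 CPM in endothelial cells and at most at 165 in other classes. Endothelial levels of Ifitm3 and Bst2 exceeded those of the other classes in each library.

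Among the GTPases, Gbp7 stood at 349 (340 to 358), 325 (311 to 339) and 282 CPM (264 to 302) in endothelial cells and at 80.0, 78.2 and 85.5 in mural cells. Gbp4 stood at 194, 173 and 148 in endothelial cells and between 0 and 1.83 in mural cells and fibroblasts. Iigp1 stood at 236, 218 and 159, Gbp2 at 159, 151 and 151, and Igtp at 108, 97.7 and 87.5 CPM in endothelial cells. Each of the 8 GTPases had its highest level in endothelial cells in all 3 libraries. Gbp5, Gbp7, Gbp3 and Gbp2 lie side by side on chromosome 3 between bases 142493978 and 142638008 (GENCODE on GRCm38), and Gbp4 lies on chromosome 5. The Gbp, Ifit and Oas families hold close copies, and how shared reads were counted is not given in the sources used here, so levels within these families are uncertain.

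Within the endothelial class the GTPases were lower in cells with capillary aerocyte markers. Cells were divided into those with at least 3 UMIs of Car4 and Ednrb (markers of the gas-exchange capillary cells called aerocytes), of the others those with at least 2 UMIs of Vwf (large vessels), and the rest. Gbp2 stood at 55.6, 98.7 and 107 CPM in the Car4 and Ednrb set of the 3 libraries and at 183, 181 and 186 in the rest. Iigp1 stood at 66.1, 117 and 90.9 in the first set and at 275, 268 and 191 in the rest. Summed GTPases were 513, 740 and 766 CPM in the Car4 and Ednrb set, 974, 842 and 861 in the Vwf set and 1318, 1324 and 1175 in the rest. Of the 8 GTPases, 8 stood lower in the Car4 and Ednrb set than in the rest in each library. For 8, 5 and 4 of them the intervals were also apart. The share of all genes that were lower in that set was not computed, so whether the GTPases differ from other genes here was not tested. For the sum the rest was highest in all 3 libraries, although its cells were the shallowest, with medians of 2877, 3444 and 4572 UMIs against 4268, 4821 and 8090 in the Car4 and Ednrb set. Irf1 stood at 252 and 200 CPM in the Car4 and Ednrb set of the negative and early positive libraries. These levels were close to the 260 and 205 of the rest. In the late positive library Irf1 was higher in the Car4 and Ednrb set, at 234 against 189 CPM in the rest.

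**Figure D4:**
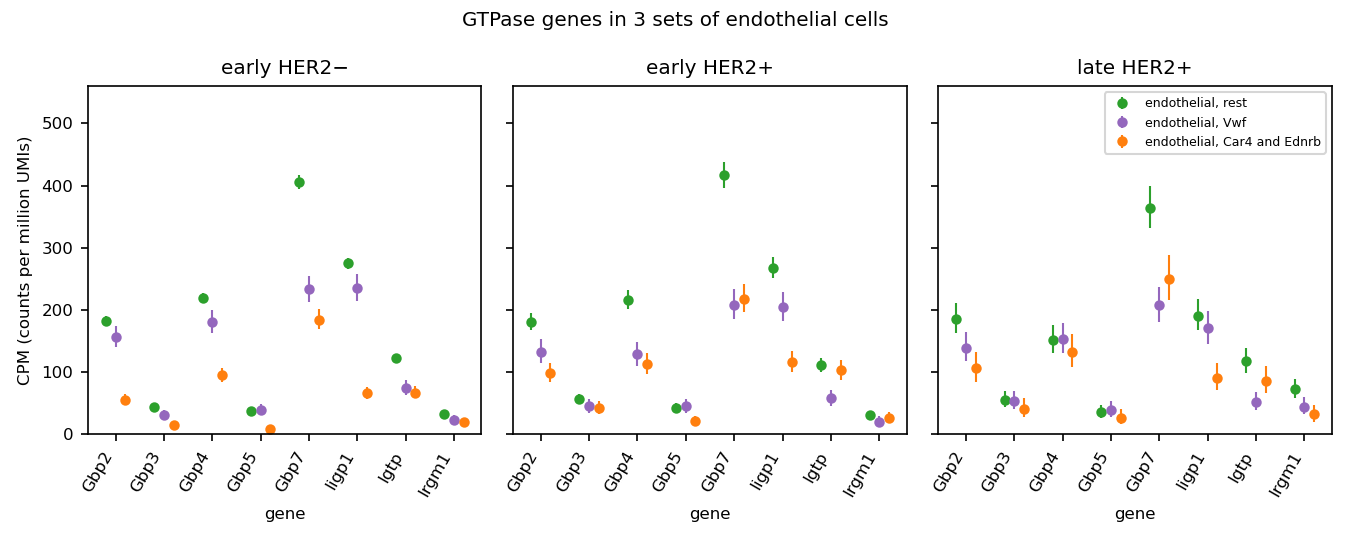
Points give the CPM (y axis) of the 8 GTPases (x axis) in the 3 sets of endothelial cells, with exact Poisson intervals, 1 panel per library. For Gbp2 and Iigp1 the Car4 and Ednrb set lies below the rest in every panel, while Gbp4 intervals meet in the late positive library.

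A few genes were highest elsewhere. Ifitm1, a close relative of Ifitm3 found at the cell surface, stood at 1135 (1063 to 1210), 847 (822 to 874) and 1243 CPM (1209 to 1278) in mural cells and at 10.2, 63.1 and 46.1 in endothelial cells. It was 11.8-fold, 4.77-fold and 6.01-fold above the next class. Ifitm1 was thus a mural gene in these libraries, while Ifitm2 and Ifitm3 were highest in endothelial cells. Usp18, the protease that removes Isg15 from proteins, stood at 52.2 (40.9 to 65.8) and 50.2 CPM (41.3 to 60.5) in airway cells of the early and late positive libraries and at 4.60 and 4.64 in endothelial cells. Ifi35, a leucine zipper protein, was 1.24-fold (1.05 to 1.45) and 1.80-fold (1.54 to 2.11) higher in airway than in endothelial cells. Ifit2, a partner of Ifit1, was highest in fibroblasts of both early libraries, at 58.0 and 38.5 CPM, and in mural cells of the late library, at 32.7. Ifi27, a mitochondrial protein, ranged from 128 to 512 CPM over all classes of at least 50 cells, with its highest level in mammary cells.

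The 1% of endothelial cells with most GTPase UMIs held 9.91%, 9.41% and 10.4% of them in the 3 libraries. In alveolar type 2 cells 533 of 3939 and 560 of 3996 cells held a GTPase UMI, with 955 and 802 such UMIs in all. In endothelial cells at least 3 GTPase UMIs were held by 56.3%, 63.6% and 72.3% of cells with at least 3 effector UMIs. In the other endothelial cells the shares were 33.7%, 35.0% and 33.3%. The cells with effectors were also deeper (medians of 3418, 4552 and 6554 UMIs against 2689, 2985 and 3472). After thinning to 1000 UMIs the shares were 55.9%, 54.1% and 49.8% against 47.7%, 47.7% and 41.3%, with 1 UMI of each kind as the threshold. The thinned intervals were apart in the negative library (54.1 to 57.7 against 45.7 to 49.8). They overlapped in the early positive (50.7 to 57.6 against 44.0 to 51.4) and the late positive library (43.6 to 56.0 against 34.8 to 48.1). The endothelial cell of the negative library with most effector UMIs held 144, of which 22 were Isg15 and 33 Ifit3, and 2 GTPase UMIs. Its depth was 51955 UMIs against a class median of 3034, and whether it is 1 cell was not tested.

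The interferons themselves were at or near 0. Of 21 interferon genes, 19 had 0 UMIs in kept cells of all libraries, interferon gamma (Ifng) and beta (Ifnb1) among them, which allows up to 0.130, 0.0674 and 0.0587 CPM over all cells of a library. Ifnk, an interferon of epithelia, reached at most 3.19 CPM among classes of at least 50 cells, in late mural cells, and Ifnz was the other gene with a count. Leukocytes, a main source of interferons, had been sorted out, and Ptprc (CD45) was found in 6, 11 and 4 cells.

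Among the 6 receptor genes, the highest level was endothelial for 4 of 5 counted in the negative library, 2 of 6 in the early positive and 0 of 6 in the late positive library, beside 34.9%, 23.7% and 18.1% of all genes. Ifngr1, which binds interferon gamma, was highest in fibroblasts, at 716, 425 and 261 CPM, followed by endothelial cells at 303, 235 and 214, and it was 33.9 and 32.1 in alveolar type 2 cells. Ifnar1 stood at 72.0, 57.7 and 55.7 CPM in endothelial cells and at 14.4 and 11.7 in alveolar type 2 cells. Ifnlr1, which binds type III interferons at epithelia, stood at 7.25 and 7.31 in airway cells and at most at 0.0572 in endothelial cells. The inhibitors were highest in endothelial cells for 3 of 7, 3 of 8 and 1 of 8, shares not far from the same percentages of all genes. Of these, Socs3 stood at 297, 248 and 156 CPM in endothelial cells and Socs1 at most at 20.7 in any class of at least 50 cells.

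Other interferon-induced genes were read from a list chosen with results of these data known. The endothelial class was highest for 34 of 40, 32 of 40 and 29 of 39 counted genes of that list in the 3 libraries, for 10 of 10 genes of antigen presentation on MHC class I in each, and for 7 of 7, 4 of 7 and 4 of 7 MHC class II genes, beside 34.9%, 23.7% and 18.1% of all genes.

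Between libraries the endothelial levels of the group changed little. Comparing early positive with negative endothelial cells asks whether the sort fractions differ at the same age. Of 37 counted genes 2 were at least 1.5-fold higher (10.9% of all genes) and 2 at least 1.5-fold lower (5.44%), and the sum was 0.941-fold. Ifitm1 was 6.17-fold higher (5.17 to 7.39), at 63.1 against 10.2 CPM, and Oas1a, a synthetase of the RNA-degrading pathway, 1.60-fold higher (1.08 to 2.35). The call of Oas1a was lost without cells meeting a second class rule (log2 ratio 0.54) and with equal weight per cell (0.36). Usp18 was 0.515-fold (0.339 to 0.761) and Ifit1 0.640-fold (0.514 to 0.790). The mural marker genes moved the same way as Ifitm1 in these endothelial cells: 6 of 6 were higher, summed at 707 against 39.9 CPM. Without cells meeting a second class rule, Ifitm1 kept a log2 ratio of 2.46. The part of mural RNA in either value was not tested.

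The same class was compared between the early and late positive libraries, which differ in age and in the presence of primary tumours. Of 37 genes 2 were higher in the early library by 1.5-fold or more (9.77% of all genes) and 3 lower (4.82%). Ifit2 was 2.33-fold higher (1.30 to 4.47), at 10.8 against 4.64 CPM, and Rsad2 1.56-fold higher (0.695 to 3.97), an interval that spans 1. Irgm1 was 0.525-fold (0.423 to 0.653), at 27.9 against 53.0 CPM. Zbp1, a sensor that triggers cell death, was 0.639-fold (0.448 to 0.915) and Trim25, a ligase that activates RIG-I, 0.667-fold (0.545 to 0.817). In these cells 6 of 6 mural markers were higher in the early library, at 707 against 305 CPM summed. Of 6 alveolar type 1 markers 4 were higher and 1 lower, at 1038 against 998 summed. Most of that sum was Hopx, at 467 against 425, and Vegfa, the lower one, at 266 against 476. The higher ones were Ager, at 215 against 59.3, Akap5, at 43.7 against 22.2, Aqp5, at 31.9 against 11.3, and Rtkn2, at 12.9 against 3.98. The part of these markers in the result was not tested.

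In mural cells of the early against the late positive library, 0 of 31 counted genes were at least 1.5-fold higher (10.4% of all genes) and 4 were lower (5.51%). Ifit1 was 0.379-fold (0.196 to 0.703), at 3.26 against 8.60 CPM, Rtp4 0.553-fold (0.357 to 0.848), Irgm1 0.575-fold (0.360 to 0.909) and Dhx58, a helper of RNA sensing, 0.634-fold (0.283 to 1.39). The sum was 3943 against 4815 CPM, with Ifitm1, Ifitm2 and Ifitm3 each lower in the early library by less than 1.5-fold. In the same cells 13 of 15 early-response genes, which rise within minutes of cell handling or stress, were higher in the early library, and so were 6 of 6 alveolar type 2 markers, at 1423 against 556 CPM summed. The part of these in the result was not tested. Without cells meeting a second class rule or holding Ptprc, 5 members were higher in place of 0, beside 11.6% of all genes. This took out 627 of 1352 early and 514 of 931 late mural cells, all of which met the fibroblast rule (Pdgfra and Col1a2). Summed over the group, the cells taken out held 3766 and 4790 CPM, against 4145 and 4853 in the cells left. Whether they are mixtures of cells or mural cells with collagen RNA was not tested. The cause was not tested.

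Between the early positive and HER2-negative libraries, 5 of 29 counted genes were higher in mural cells (13.1% of all genes) and 3 lower (9.68%). The HER2-negative library had 221 mural cells, and only 2 of these 8 genes had an interval clear of 1. They were Gbp3, at 3.42-fold (1.12 to 17.0) on 62 and 3 UMIs, and Xaf1, at 0.598-fold (0.384 to 0.963). Without cells meeting a second class rule 2 of the 5 higher genes kept their call, Gbp3 (log2 ratio 2.13) and Eif2ak2 (2.32), and Xaf1 stood at -0.37. That setting left 725 HER2-positive and 103 HER2-negative cells. Gbp3 had only 3 UMIs in all 221 HER2-negative mural cells, and the interval of Eif2ak2 over all mural cells spanned 1, so both values are uncertain. Fibroblast markers summed to 537 CPM in the HER2-positive and 1521 in the HER2-negative mural cells and alveolar type 2 markers to 1423 and 17.2, and their part in these ratios was not tested.

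**Figure D5:**
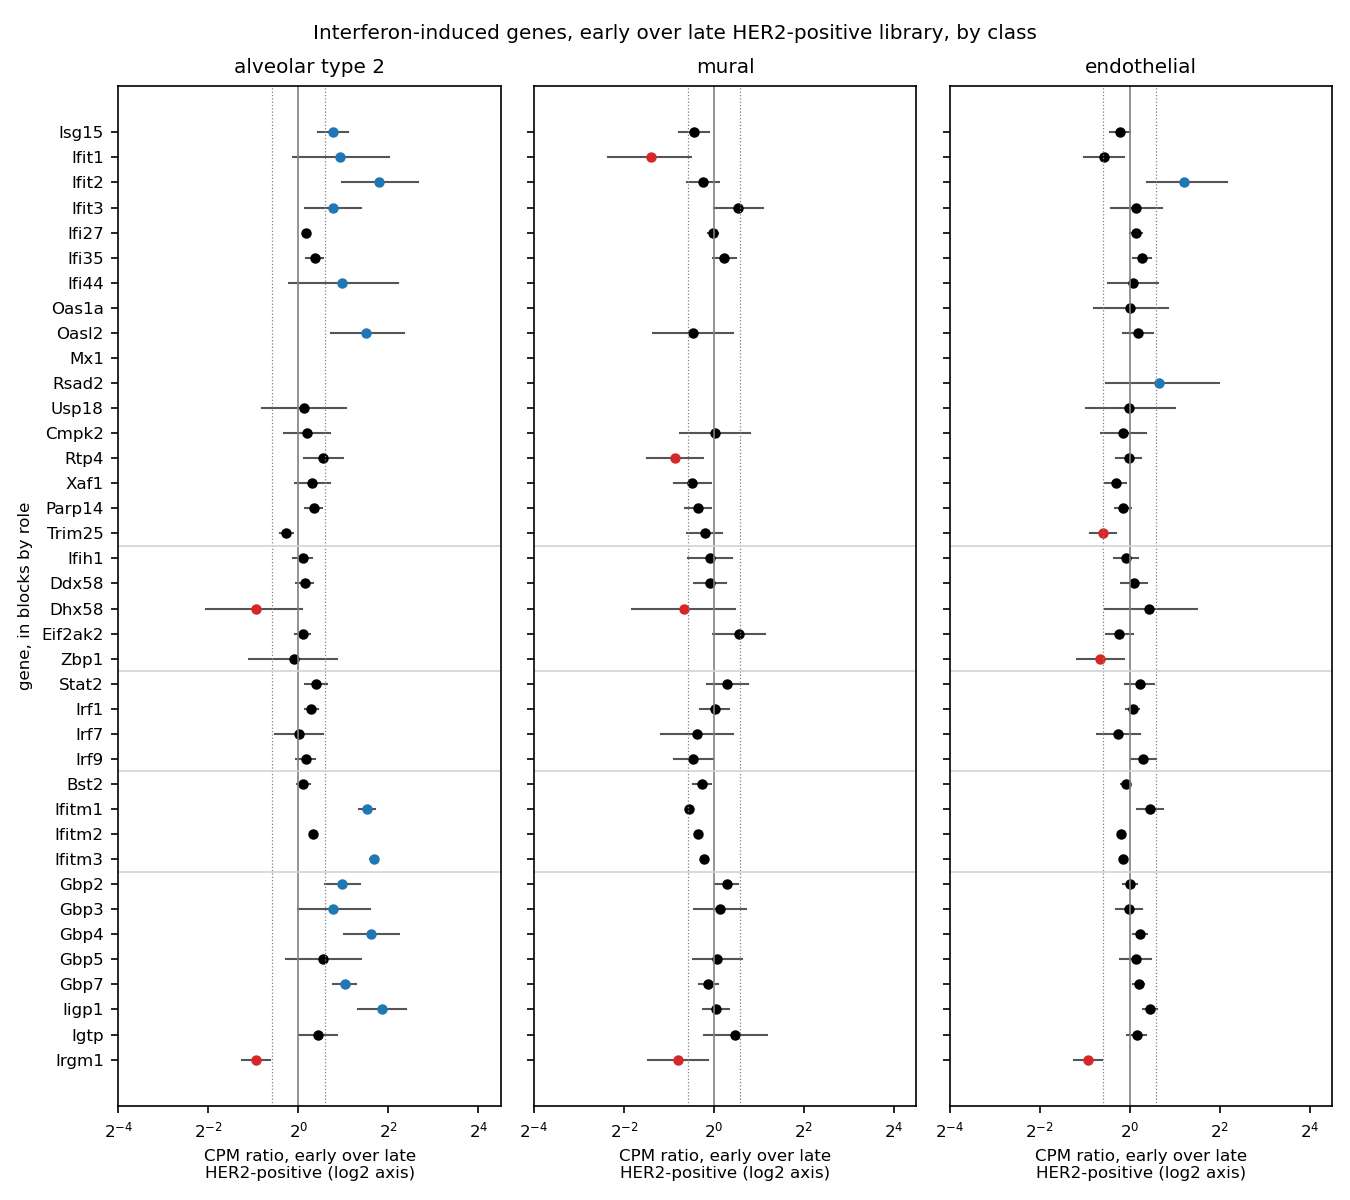
Points give the ratio of CPM in the early over the late positive library (x axis, log2) for each gene with at least 20 counts (y axis, in blocks by role), with exact 95% intervals, in alveolar type 2, mural and endothelial cells; dotted lines mark 1.5-fold, blue is higher and red lower. Blue points gather among the alveolar type 2 GTPases and at Ifitm1 and Ifitm3, and Irgm1 is red in all 3 panels.

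In alveolar type 2 cells part of the group was higher in the early positive library, and most of these differences were lost without cells that met a second class rule. Of 35 counted genes 13 were at least 1.5-fold higher (13% of all genes) and 2 lower (2.65%), the median log2 ratio was 0.36 against 0.10 over all genes, and the sum was 1.36-fold (1.33 to 1.39). Ifitm3 was 3.20-fold higher (2.997 to 3.416), at 112 against 34.9 CPM, Iigp1 3.61-fold (2.52 to 5.26), Ifit2 3.44-fold (1.97 to 6.27), Gbp4 3.05-fold (2.02 to 4.69), Ifitm1 2.87-fold (2.54 to 3.26) and Oasl2 2.84-fold (1.65 to 5.08). Irgm1 was 0.524-fold (0.419 to 0.651) and Dhx58 0.523-fold (0.243 to 1.06). All of the higher genes but Ifitm1 and Ifitm3 stood at 11.0 CPM or less in both libraries.

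Markers of vessel and stromal cells moved with these genes in the same alveolar type 2 cells. Endothelial markers were higher for 6 of 6 genes, at 155 against 61.3 CPM summed, mural markers for 6 of 6, at 522 against 74.9, and fibroblast markers for 5 of 6, at 78.6 against 26.2. Cells that also met the endothelial rule were 126 of 3939 in the early library and held 40.1% of the GTPase UMIs of the class, and 39 of 3996 in the late library, holding 21.2%. Cells that met no second rule, 3269 early and 3410 late, held 12.6 and 16.7 CPM of summed GTPases and 20.9 and 12.9 of Ifitm3. Without cells of a second class or with Ptprc, 2 genes remained 1.5-fold higher, Oasl2 (log2 ratio 0.73) and Ifitm3 (0.69), while the share of all genes that were higher fell from 13% to 5.85%, and the log2 ratio of the sum was 0.0643 in place of 0.45. Gbp2 and Ifitm1 turned, to -0.90 and -0.25, whereas Irgm1 kept a log2 ratio of -0.92 and Dhx58 one of -1.38. The part of these markers and of the cells meeting a second rule in the differences was not tested.

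The mammary class of the late library was set against alveolar type 2 cells of the same library, so that both come from 1 library. Its median depth was 22179 UMIs against 8837. Of 36 counted genes 26 were at least 1.5-fold higher (45.1% of all genes) and 3 lower (21.5%), and the sum was 1595 against 478 CPM, or 3.33-fold. The median log2 ratio was 1.41 against 0.44 over all genes. Scaling by the trimmed mean lowered every log2 ratio by 0.63 and left 20 genes higher and 6 lower, against 25.2% and 36.7% of all genes. The share of members that were higher thus exceeded that of all genes under both scalings, in a group chosen with earlier results of these data known.

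Several of these genes were spread over many mammary cells. Iigp1 stood at 56.5 against 1.15 CPM, 49.2-fold (35.2 to 70.3), with UMIs in 60 of the 161 cells. Zbp1 stood at 22.7 against 0.629 CPM, 36.1-fold (22.6 to 60.1), in 58 cells, and Oas1a at 5.95 against 0.137, 43.5-fold (16.1 to 147), in 20 cells. Ifi27 stood at 512 against 131 CPM with UMIs in 161 cells, and Ifitm2 at 489 against 100.4 in 157. Isg15 was different: 85 of its 127 UMIs lay in 1 cell, which also held 58 of the Iigp1 UMIs, and without that cell and its like in the other class its log2 ratio was 1.73 in place of 3.31. The UMIs of Isg15 thus sat in fewer mammary cells than those of Iigp1 or Zbp1. The 49.2-fold of Iigp1 includes the 58 UMIs of that 1 cell.

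The lower genes of the mammary class were Irf1, at 8.65 against 23.1 CPM (0.375-fold, 0.255 to 0.534), Ifitm1, at 3.79 against 9.89 (0.383-fold, 0.207 to 0.650), and Gbp4, with 1 UMI. Ifit3 and Gbp5 had 0 UMIs in mammary cells, which allows up to 0.811 CPM. Among genes of antigen presentation, 5 of 10 class I genes were higher and 1 lower, beside 45.1% and 21.5% of all genes, so the share of higher ones was close to that of all genes. B2m, the light chain of MHC class I, was 2.69-fold higher (2.59 to 2.79) and Tap1, a peptide transporter, 3.19-fold (2.56 to 3.96). These 2 were named after their values were seen, and trimmed-mean scaling lowers their log2 ratios by 0.63. MHC class II genes were lower for 6 of 7, such as Cd74 at 60.6 against 2489 CPM, alveolar type 2 cells being known for class II expression. Slfn2, an interferon-induced gene of the Schlafen family outside the group, had the highest ratio among the counted genes of its list, at 20.3 against 0.109 CPM.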

How the data were processed

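The negative library is the early CD45- HER2- sort, and the early and late positive libraries are the CD45- HER2+ sorts. The deposited matrices hold UMI counts per gene and cell barcode, not normalized, 1 matrix per library, and include low-count barcodes. They carry matrix software version 3.1.0, per the file headers. The submitters' processing notes name the build mm10. For the annotation, reads that match several genes and doublet removal, the steps taken were not given in the sources used here.

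Barcodes with at least 1000 UMIs and under 25% mitochondrial UMIs were kept. Classes were set by marker UMIs: Csn3 and Wfdc18 at 1% of the cell's UMIs (mammary), Sftpc at 10% (alveolar type 2), 3 UMIs of Cyp2f2 and Foxj1 (airway) or 2 of the markers of the other classes. No doublet caller was run. Cells meeting a second rule were described, and left out as an alternative. Counts were summed per class and library and given as CPM with exact Poisson intervals. Ratios of sums have exact conditional binomial intervals, and shares have Clopper-Pearson intervals. A gene was counted with at least 20 UMIs over both sides and called at 1.5-fold. A count of 0 was taken to allow up to 3. With 1 library a group no test was possible. Shares were also read after thinning to 1000 UMIs, and barcodes of at most 100 UMIs served as background. Ratio and interval code was tested on simulated data. Python 3.11.15 was used with numpy 2.4.6, scipy 1.17.1, pandas 2.3.3 and matplotlib 3.10.9.

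The 38 genes and all lists were chosen with earlier results of these data known. Any of the 38 may be named. Of other lists, interferons, receptors and the 3 highest and 3 lowest ratios per list may be named, and the Socs genes, B2m, Tap1 and Cd74 were added after their values were seen, as was the division of unclassed cells. Alternatives were a minimum of 500 UMIs, trimmed-mean scaling, equal weight per cell, background taken off, no count minimum, and leaving out mixed cells or the cell with most UMIs of the group.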

Additional observations from a re-analysis of the deposited data

Results flagged for a closer look

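Cells that met no class rule entered no comparison, and 3 effectors stood out there. Rsad2 stood at 207 CPM in the unclassed cells of the negative library, against 2.92 in its endothelial cells. All 184 Rsad2 UMIs lay in 57 of the 150 unclassed cells with at least 10% haemoglobin UMIs, where Rsad2 reached 412 CPM (355 to 476) and Ifit1 and Ifit3 had 0 UMIs. In the late positive library 5 such cells held 15 Rsad2 UMIs, 93.3% of them in 1 cell. Red-cell RNA and Rsad2 were thus found together in 57 cells of the negative library, but mainly in 1 cell of the late positive library.

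Ifit3 stood at 119 CPM in unclassed cells of the early positive and 47.3 in those of the late positive library, above every named class there. It lay mostly in cells with at least 10 UMIs of Ager, Rtkn2 and Akap5, which are markers of alveolar type 1 cells. In these cells Ifit3 stood at 211, 188 and 114 CPM in the 3 libraries, with UMIs in 19 of 36, 57 of 125 and 23 of 59 cells. Ifit1 stood at 37.7 CPM in unclassed cells of the early positive library, and 1 cell of the Ager set held 47.7% of the Ifit1 UMIs of that set.

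The early over late ratio of Ifit1 was 1.90 (0.919 to 4.03, an interval that spans 1) in alveolar type 2 cells and 0.379 (0.196 to 0.703) in mural cells. The difference between these ratios was not tested.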

How the results depend on the processing

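The cause was not tested for any change below, and no alternative has a replicate check. Without mixed cells (cells meeting a second class rule or holding Ptprc), alveolar type 2 cells had 2 genes higher in the early library in place of 13 and a log2 ratio of the sum of 0.0643 in place of 0.45. With background taken off these were 8 and 0.29, and the sum was 0.33 by trimmed mean and 0.36 with cells weighted equally. Mural cells, early over late, had 2 genes higher with equal weight, 2 with no count minimum and 5 without mixed cells, in place of 0. Their sum, at -0.29, was -0.32 by trimmed mean, -0.24 with equal weight and -0.23 without mixed cells. The endothelial early over late sum, at -0.07, was -0.12 by trimmed mean. Endothelial cells, HER2-positive over HER2-negative, had 4 genes lower by trimmed mean, 1 with equal weight and 1 without mixed cells, in place of 2, with sums of -0.13, -0.0694 and -0.0572, and -0.0658 with background taken off. Mural cells of that comparison had a sum of -0.11 with equal weight and 6 genes lower with no count minimum. Mammary over alveolar type 2 cells had 6 genes lower by trimmed mean and 1 without mixed cells, in place of 3. The log2 ratio of their sum was 1.10 by trimmed mean, 1.82 with equal weight, 2.04 with background taken off, 1.93 without mixed cells and 1.68 without the top cells. Directions turned for 4 genes: in alveolar type 2 cells Gbp3 was -0.25 with background taken off and, without mixed cells, Ifitm1 was -0.25 and Gbp2 -0.90, and in mural cells, HER2-positive over HER2-negative, Cmpk2 was -0.0350 without mixed cells.

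Shares with at least 5 UMIs of the group became 95.7%, 95.5% and 97.2% of endothelial cells of the 3 libraries and 90.7% of early positive mural cells at a minimum of 500 UMIs. Without mixed cells they were 21.4% and 30.9% of alveolar type 2 cells and 90.9% of early positive mural cells. With at least 3 UMIs in cells thinned to 1000 UMIs, a change of threshold and depth together, they were 91.8%, 91.3% and 94.7% (endothelial), 77.8%, 71.3% and 79.2% (mural), 64.8%, 67.5% and 60.6% (fibroblast), 4.29% and 1.65% (alveolar type 2), 22.6% and 22.4% (airway) and 18.6% (mammary). With at least 5 UMIs and no membrane genes they were 67.1%, 72.8% and 78.6%, 24.9%, 22.5% and 33.1%, 44.0%, 47.4% and 53.5%, 16.0% and 18.3%, 47.1% and 58.2%, and 89.4% in the same order. No paired analysis was possible because each group holds 1 library. Depth limits genes under about 1 CPM, and the 221 mural cells of the HER2-negative library.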

Other observations

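Irgm1, a regulator of the other immunity-related GTPases, was lower in the early positive library than in the late one in every class they share. It stood at 27.9 against 53.0 CPM in endothelial cells, 4.11 against 7.84 in alveolar type 2 cells, 6.92 against 12.04 in mural cells, 2.18 against 8.22 in airway cells (3 and 18 UMIs) and 3.85 against 25.9 in fibroblasts (5 and 10 UMIs). Background barcodes held 8.82 and 7.24 CPM of Irgm1. Endothelial Irgm1 in the negative library was 29.4 CPM.

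Single cells with many effector UMIs were found in several classes. A fibroblast of the negative library held 72 effector UMIs, 31 of them Ifit3 and 17 Ifit1, an airway cell of the late library held 90, 29 of them Isg15, and a late mural cell held 39, 21 of them Isg15. An endothelial cell of the early positive library held 58 GTPase and 28 effector UMIs.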
